A study of Mus musculus with 18 samples.

Results

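The Toll-like receptors (TLR) are innate immune receptors that recognise microbial lipids, proteins and nucleic acids. The 10 members described here are the genes Tlr1, Tlr2, Tlr3, Tlr4, Tlr6, Tlr7, Tlr9, Tlr11, Tlr12 and Tlr13, taken by gene symbol from a table of 16614 mouse genes, and all 10 passed the filter on low counts that left 11989 genes. Tlr5 and Tlr8 are also in that table and were not among the members; at their group means they reached at most 0.41 and 2.44 TPM, the deposited level per transcript length. RNA was sequenced from bone marrow-derived dendritic cells (BMDC) in 18 libraries, namely WT Control (n = 4), KO Control (n = 4), WT LPS (n = 5) and KO LPS (n = 5). LPS is lipopolysaccharide, the bacterial outer membrane lipid that Tlr4 recognises. Cells of every group grew out of marrow over 7 to 10 days in a medium with Flt3L (100 ng/ml) and with GM-CSF (20 ng/ml), and were purified on XCR1, the chemokine receptor that marks type 1 conventional dendritic cells (cDC1), by sorting or by beads. Neither the deleted gene nor the LPS dose and time is named in the labels, and the purification of each sample is not given. The series title names STAT5 and STAT3 as its subject. The labels do not say whether replicates came from separate mice or cultures, so p-values measure only the spread between these samples, which may be technical.

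Surface TLRs bind microbial lipids, and endosomal TLRs bind nucleic acids or protozoan profilin after delivery by the chaperone UNC93B1 and cleavage by endosomal proteases. Most signal through the adaptor MyD88, Tlr3 signals through TRIF (Ticam1), and Tlr4 uses both. Mouse cDC1 are known for high Tlr3, Tlr11 and Tlr12 and for little of the LPS receptor. In bulk samples, fewer cells of a type and less RNA per cell cannot be told apart.

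Library totals lay between 25590104 and 27375189 estimated counts. A list of 12 cDC1 marker genes summed to 9013 to 9291 CPM (counts scaled to library size with TMM factors) in WT Control. The sum was 8582 to 9638 CPM in KO Control, and 7555 to 9071 (WT) and 7102 to 8095 CPM (KO) with LPS. Wdfy4, Irf8 and Naaa made up most of it, and Batf3 averaged 20.0 CPM in WT Control. Xcr1, the purified marker, averaged 175 CPM (WT) and 109 CPM (KO) in Control and 428 CPM (WT) and 281 CPM (KO) with LPS. It was lower in KO without overlap in Control (log2 fold change -0.68 ± 0.07 (SE), edgeR adjusted p = 1.3e-05) and with LPS (-0.61 ± 0.06, 1.4e-06). The part of this difference in the receptor levels was not tested. Of the 12 cDC1 genes, 3 rose and 6 fell with LPS in WT, and 4 rose and 5 fell in KO. Between genotypes, 1 was higher and 1 lower in KO in Control, and 2 were higher and 5 lower with LPS. Itgae fell from 269 to 58.5 CPM and Flt3 from 605 to 303 CPM in WT, and Naaa stood at 514 CPM in KO LPS against 986 CPM in WT LPS; the part of these shifts in the receptor levels was not tested. Monocyte and macrophage genes (9 of 9 tested, 5 higher and 2 lower with LPS in WT) summed to 1762 to 1852 CPM (WT) and 1810 to 2073 CPM (KO) in Control and to 1282 to 1494 CPM (WT) and 1062 to 1642 CPM (KO) with LPS, with Lyz2 and Ccr2 as most of that sum. Plasmacytoid dendritic cell genes summed to 45.6 to 52.2 CPM in Control and 145 to 206 CPM with LPS; of 4 tested genes, 2 rose and 2 fell in each genotype. Tcf4 rose from 30.3 to 149 CPM and Pacsin1 from 1.73 to 6.39 CPM in WT, while Ccr9 fell from 13.2 to 7.35 CPM and Siglech from 3.76 to 1.23 CPM; Ly6d reached at most 0.14 CPM and Klk1 at most 0.03 CPM in a library. Genes of cDC2, the other conventional type, summed to 114 to 215 CPM over all libraries (5 tested, 2 higher and 2 lower with LPS in each genotype), and erythroid and platelet genes to at most 15.2 CPM. B, T and NK, and mast cell genes summed to at most 6.35 CPM in any library. Neutrophil genes summed to 25.5 CPM in WT Control replicate 4 and 83.7 CPM in WT LPS replicate 5, and to at most 2.05 CPM in the other 16 libraries. WT LPS replicate 2 stood apart, with a median absolute deviation of 0.26 (log2) from its group's mean profile against 0.08 to 0.15 in the other WT LPS libraries. Calls of members that change without it are given both ways. For the gene lists only the number called without it is given. In KO Control, replicate 4 deviated by 0.13 against 0.06 to 0.08 in the others of its group. That library was also the lowest of KO Control for Tlr2, Tlr3, Tlr4, Tlr9, Tlr11 and Tlr13, and the highest for Tlr7.

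Promoter sequence was available for 8 of the 10 members (RefSeq, mouse build GRCm38.p6, 10 windows, each from 250 bases before to 50 after the annotated start; the start of 1 of the 2 Tlr6 windows matched no transcript sequence it was checked against); Tlr4 and Tlr7 had no window. The members that moved most and had a window are shown by their 250 upstream bases, 5′ to 3′ on the gene's strand, because they adjoin the starts of the genes with the largest changes in level. Capitals mark matches to short motifs of factors that act downstream of TLR and cytokine receptors: the NF-kB motif (kB) in Tlr2 and Tlr3, the AP-1 motif TGANTCA in Tlr9 and the interferon-stimulated response element (ISRE) in Tlr11, searched as GAAA, any 2 bases and GAAA again. Tlr12 held no match. The regions are chr3:83841609-83841858 (minus strand) for Tlr2, chr8:45410381-45410630 (minus) for Tlr3, chr9:106222348-106222597 (plus) for Tlr9, chr14:50357664-50357913 (plus) for Tlr11 and chr4:128618620-128618869 (minus) for Tlr12.
Tlr2: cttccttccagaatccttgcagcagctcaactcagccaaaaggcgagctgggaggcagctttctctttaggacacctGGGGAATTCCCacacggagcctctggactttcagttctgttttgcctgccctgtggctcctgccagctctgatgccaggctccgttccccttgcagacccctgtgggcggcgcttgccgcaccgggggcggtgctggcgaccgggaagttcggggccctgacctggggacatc
Tlr3: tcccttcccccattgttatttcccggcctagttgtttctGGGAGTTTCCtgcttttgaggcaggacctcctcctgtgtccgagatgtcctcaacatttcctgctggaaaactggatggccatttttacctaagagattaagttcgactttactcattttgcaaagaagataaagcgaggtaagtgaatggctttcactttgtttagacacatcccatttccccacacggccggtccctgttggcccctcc
Tlr9: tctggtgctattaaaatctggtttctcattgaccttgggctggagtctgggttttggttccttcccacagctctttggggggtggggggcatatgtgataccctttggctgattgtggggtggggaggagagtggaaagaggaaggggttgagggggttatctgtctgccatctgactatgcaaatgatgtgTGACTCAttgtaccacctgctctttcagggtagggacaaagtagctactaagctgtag
Tlr11: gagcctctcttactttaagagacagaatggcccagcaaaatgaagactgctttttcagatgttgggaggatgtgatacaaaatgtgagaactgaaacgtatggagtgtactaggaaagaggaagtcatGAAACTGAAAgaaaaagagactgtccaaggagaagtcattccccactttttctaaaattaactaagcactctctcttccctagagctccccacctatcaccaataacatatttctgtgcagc
Tlr12: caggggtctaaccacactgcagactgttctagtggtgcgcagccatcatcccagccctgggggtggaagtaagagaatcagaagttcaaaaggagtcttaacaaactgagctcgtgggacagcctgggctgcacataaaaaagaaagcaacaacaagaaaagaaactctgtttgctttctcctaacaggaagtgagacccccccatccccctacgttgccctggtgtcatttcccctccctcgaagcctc
On either strand, the kB motif was found in 2 of the 8 members and in 8.46% of the 32851 windows of the same length. Tlr2 held 2 overlapping kB matches at -173 to -164 and -172 to -163 from the start, and another at -8 to 1 that runs past the printed stretch; Tlr3 held a match at -211 to -202. The AP-1 motif was found in Tlr9 alone among the 8 members, at -58 to -52, and in 7.81% of all windows. The ISRE was found in Tlr11 at -122 to -113 and, as 2 matches, in the Tlr6 window with the unmatched start, and in 3.44% of all windows. The motif TTCNNNGAA bound by STAT factors was found in windows of Tlr1 and Tlr6 and in 8.3% of all windows, and the ETS-IRF composite motif (GGAA, any 2 bases, GAAA) in no member and in 2.72% of all windows. Matches of letters describe the window only, and binding was not measured here.

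Without stimulation, the receptor transcripts of these cells were mostly those of Tlr3, Tlr11 and Tlr12. In WT Control, Tlr3 averaged 167 ± 13.5 TPM (SD, n = 4), Tlr12 130 ± 4.63 TPM and Tlr11 124 ± 9.77 TPM, and the libraries of Tlr12 and Tlr11 overlapped. Tlr9 followed at 50.3 ± 3.23 TPM and Tlr13 at 23.1 ± 2.36 TPM. The surface receptors were low: Tlr1 at 4.98 ± 0.39 TPM, Tlr2 at 3.72 ± 0.54, Tlr6 at 3.42 ± 0.27 and Tlr4 at 2.25 ± 0.28 TPM, with Tlr2 and Tlr6 overlapping. Tlr7 was lowest at 1.35 ± 0.23 TPM. TPM is scaled by transcript length, so these levels can be set beside each other across genes. KO Control had the same 5 genes on top, with Tlr3 at 161 ± 7.54 TPM, Tlr11 at 135 ± 11.4 TPM and Tlr12 at 123 ± 3.39 TPM, and Tlr7 was again lowest at 1.31 ± 0.12 TPM.

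With LPS the order changed. Tlr9 led at 237 ± 22.6 TPM in WT (SD, n = 5) and 282 ± 17.7 TPM in KO, and its lowest library, at 204 TPM, lay far above the highest of any other member, 43.9 TPM for Tlr13. Tlr13 at 31.8 ± 7.13 TPM, Tlr2 at 26.1 ± 3.92 TPM and Tlr3 at 21.9 ± 4.35 TPM came next in WT, each overlapping its neighbour. Tlr11 at 17.8 ± 3.72, Tlr12 at 14.1 ± 4.55, Tlr1 at 7.51 ± 2.53 and Tlr7 at 4.37 ± 1.15 TPM also overlapped from neighbour to neighbour. Tlr6 at 1.53 ± 0.33 TPM and Tlr4 at 0.40 ± 0.09 TPM stood apart at the bottom. KO LPS had the same order.

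**Figure D1:**
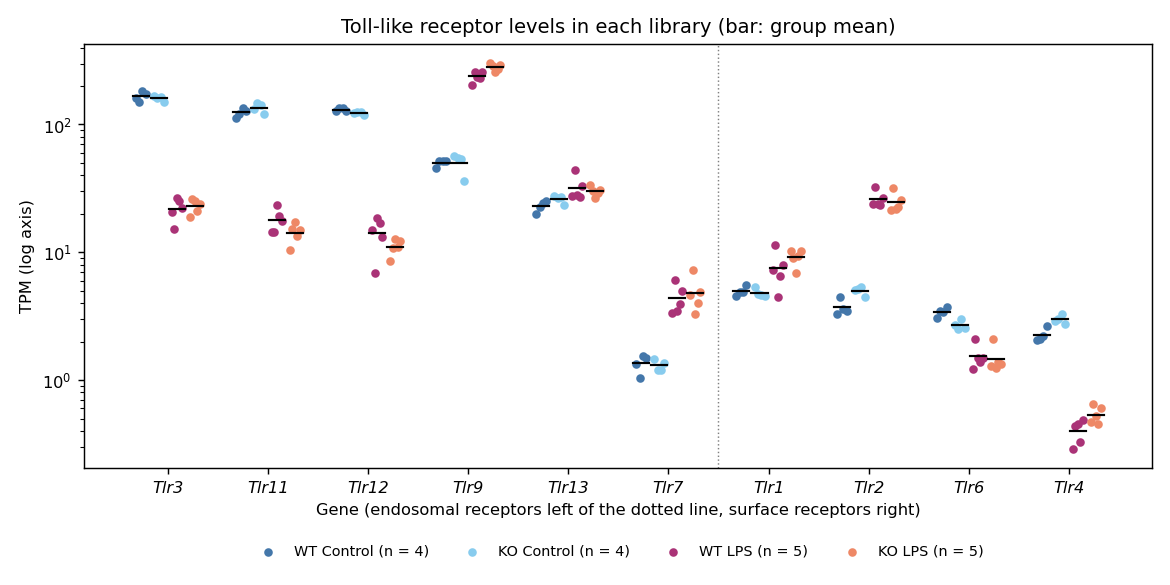
TPM of the 10 Toll-like receptor genes on a log axis, one point for each library and a bar at the group mean (WT Control and KO Control n = 4, WT LPS and KO LPS n = 5); endosomal receptors stand left of the dotted line. Tlr3, Tlr11 and Tlr12 sit above 100 TPM in Control and below 30 TPM with LPS, while Tlr9 rises from 50.3 to 237 TPM in WT.

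The summed TPM of the 10 members was 511 ± 27.2 (WT) and 513 ± 32.1 (KO) in Control and 363 ± 29.5 (WT) and 401 ± 21.3 (KO) with LPS. TPM carries no TMM factors, whose means were 1.36 (WT) and 1.32 (KO) in Control and 0.814 (WT) and 0.769 (KO) with LPS. Whether the sum falls or rises with LPS depends on that scaling, so no change in total is read from this sum. Tlr3, Tlr11 and Tlr12 together held 82.6 ± 0.79% of that sum in WT Control and 81.9 ± 1.39% in KO Control, and 15.0 ± 3.67% and 12.1 ± 2.00% with LPS. Tlr9 held 9.85 ± 0.42% (WT) and 9.75 ± 1.36% (KO) in Control, and 65.4 ± 1.17% (WT) and 70.3 ± 1.92% (KO) with LPS. The Tlr9 share was 64.3 to 67.0% in the WT LPS libraries and 68.4 to 73.3% in the KO LPS libraries, which did not overlap. The 4 surface receptors held 2.82 ± 0.20% and 3.02 ± 0.09% in Control, and 9.76 ± 1.39% and 8.91 ± 0.92% with LPS. These shares describe the members and were not tested.

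**Figure D2:**
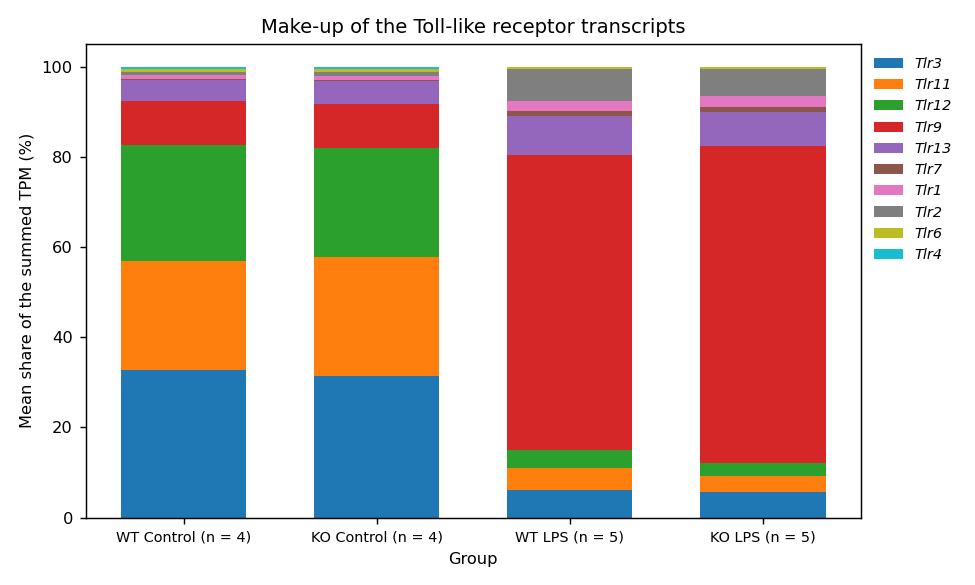
Mean share (%) of each member in the summed TPM of the 10 Toll-like receptors, by group (n = 4 or 5 libraries). Tlr3, Tlr11 and Tlr12 fill 82.6% of the WT Control bar and 15.0% of the WT LPS bar, and Tlr9 fills 65.4% of the latter.

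LPS changed nearly the whole family in both genotypes. In WT, 5 members rose (Tlr1, Tlr2, Tlr7, Tlr9 and Tlr13) and 5 fell (Tlr3, Tlr4, Tlr6, Tlr11 and Tlr12) at an edgeR adjusted p under 0.05; in KO, the same 5 rose and 4 of the others fell, with Tlr6 not called. Most genes of these cells changed with LPS: 85.5% of all tested genes were called in WT (40.7% higher, 44.7% lower) and 86.2% in KO (40% higher, 46.2% lower), so the number of members called is near the background. LPS and Control libraries of 9 of 10 members did not overlap, against 77.9% of all genes in WT and 81.8% in KO, where 9 of 10 members also did not overlap. The size of the changes was larger than that of the typical gene: the median absolute log2 fold change was 2.14 for the members and 0.84 for all genes in WT, and 2.33 and 0.91 in KO. The signed medians were 0.35 and -0.06 in WT, and 0.31 and -0.10 in KO.

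Tlr3 (gene ID 142980), the endosomal receptor for duplex RNA, fell with LPS. It stood at 331, 303, 345 and 335 CPM in the WT Control libraries and at 70.6, 53.9, 81.8, 78.6 and 71.6 CPM in the WT LPS libraries. KO Control libraries held 356, 347, 345 and 338 CPM, and KO LPS libraries 66.0, 86.9, 83.8, 72.2 and 79.3 CPM. Every LPS library lay far below every Control library, and the genotypes were interleaved. The log2 fold change was -2.20 ± 0.09 (SE) in WT (4.61-fold lower, edgeR adjusted p = 2.1e-14) and -2.16 ± 0.09 in KO (adjusted p = 2.5e-14).

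Tlr11 (239081) and Tlr12 (384059) are endosomal receptors that together recognise profilin of Toxoplasma gondii, and both fell. Tlr11 stood at 165, 177, 185 and 179 CPM in WT Control and at 35.4, 36.7, 52.1, 43.6 and 40.7 CPM in WT LPS. In KO Control it stood at 201, 228, 215 and 197 CPM, above all WT Control libraries, and in KO LPS at 26.5, 36.6, 41.7, 32.8 and 36.0 CPM, overlapping WT LPS. Its log2 fold change with LPS was -2.08 ± 0.11 in WT (adjusted p = 4.5e-13) and -2.60 ± 0.11 in KO (6.06-fold lower, adjusted p = 1.5e-14). Tlr12 was tightly grouped in Control, at 176 to 194 CPM in WT and 187 to 192 CPM in KO. With LPS it stood at 36.1, 17.3, 41.2, 38.0 and 30.5 CPM in WT and at 21.6, 25.8, 29.9, 26.8 and 29.1 CPM in KO. The value of 17.3 CPM belongs to WT LPS replicate 2, and the other 4 WT LPS libraries all lay above every KO LPS library. Tlr12 had the largest fall of the members, at -2.49 ± 0.15 in WT (adjusted p = 6.4e-12) and -2.83 ± 0.16 in KO (7.11-fold lower, adjusted p = 9.5e-13).

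Tlr9 (81897), the endosomal receptor for unmethylated CpG DNA, rose and became the most abundant member. It stood at 72.9, 81.9, 77.4 and 79.8 CPM in WT Control and at 545, 720, 571, 572 and 652 CPM in WT LPS. In KO Control it stood at 94.6, 92.6, 88.9 and 63.9 CPM, and in KO LPS at 834, 756, 674, 725 and 767 CPM. KO Control replicate 4 lay below all WT Control libraries and the other 3 KO Control libraries lay above them. The log2 fold change with LPS was 2.97 ± 0.11 in WT (7.85-fold higher, adjusted p = 2.3e-15) and 3.14 ± 0.11 in KO (8.84-fold higher, adjusted p = 9.1e-16).

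Tlr13 (279572), the endosomal receptor for bacterial ribosomal RNA, rose less. WT Control libraries held 37.5 to 45.4 CPM and WT LPS libraries 85.6, 143, 80.5, 77.6 and 97.1 CPM, the highest being replicate 2. KO Control libraries held 48.4 to 53.4 CPM and KO LPS libraries 82.0 to 110 CPM. The log2 fold change was 1.21 ± 0.14 in WT (adjusted p = 7.6e-08) and 0.86 ± 0.13 in KO (adjusted p = 6.5e-06). In KO this call depends on the scaling: it was 0.07 (adjusted p = 0.53) when libraries were scaled by their total count, a scaling that moves the median of all genes by -0.78, and 0.19 (adjusted p = 0.12) on log2(TPM + 1). Tlr7 (170743), the receptor for uridine-rich RNA, was among the lowest members and rose from 2.58 to 3.42 CPM in the WT Control libraries to 12.6 to 23.5 CPM in the WT LPS libraries (2.39 ± 0.20, adjusted p = 9.6e-10). In KO it rose from 3.03 to 3.50 CPM to 13.1 to 26.5 CPM (2.50 ± 0.20, adjusted p = 4.2e-10). The deposited Tlr7 counts were not whole in any of the 18 libraries, so part of its reads was assigned by estimation and its level is less certain than that of the members with whole counts.

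Tlr2 (24088), the surface receptor for bacterial lipopeptides, had the largest rise of the members in WT. It stood at 4.25, 5.74, 4.30 and 4.32 CPM in WT Control and at 51.3, 73.3, 46.7, 46.6 and 54.4 CPM in WT LPS. KO Control libraries held 6.76, 6.97, 7.13 and 6.39 CPM, all above WT Control, and KO LPS libraries 47.6, 67.6, 46.2, 48.9 and 54.3 CPM, overlapping WT LPS. The log2 fold change with LPS was 3.55 ± 0.15 in WT (11.7-fold higher, adjusted p = 1.9e-14) and 2.96 ± 0.14 in KO (7.77-fold higher, adjusted p = 1.5e-13).

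Tlr1 (21897) and Tlr6 (21899) pair with Tlr2 to bind lipopeptides with different acyl chains. Their genes are close relatives: their deposited counts were not whole in any of the 18 libraries, while the sum of both was whole in all 18, so reads were split between them by estimation and the ratio of Tlr1 to Tlr6 is uncertain. As deposited, Tlr1 rose from 5.92 to 6.97 CPM in the WT Control libraries to 8.91 to 26.3 CPM in the WT LPS libraries (1.34 ± 0.21, adjusted p = 5.1e-06), and from 6.34 to 7.30 CPM to 14.9 to 23.6 CPM in KO (1.58 ± 0.20, adjusted p = 4.9e-07). Tlr6 stood at 4.28 to 5.15 CPM in WT Control and 2.61 to 5.06 CPM in WT LPS (-0.52 ± 0.17, adjusted p = 0.0082), and at 3.46 to 4.12 and 2.81 to 4.70 CPM in KO (-0.23 ± 0.17, adjusted p = 0.22). In KO, Tlr6 was called lower in 6 of the 30 alternatives, at -1.01 ± 0.16 (adjusted p = 5.6e-06) with total-count scaling and -0.59 ± 0.10 (1.2e-05) on log2(TPM + 1), both of which lower the median of all genes. With TMM factors and a block for runs of consecutive library numbers, Tlr6 was called at -0.41 ± 0.10 (edgeR adjusted p = 0.0014). Summed, the pair rose, from 11.1 ± 0.84 to 19.5 ± 7.32 CPM in WT (0.81 ± 0.18, adjusted p = 0.00042) and from 10.6 ± 0.52 to 23.4 ± 3.35 CPM in KO (1.14 ± 0.19, adjusted p = 9.8e-06). This sum was added after the data were seen.

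Tlr4 (21898), the receptor for LPS itself, was scarce and fell. WT Control libraries held 7.92, 7.92, 7.92 and 9.75 CPM, and WT LPS libraries 1.84, 2.96, 2.64, 1.98 and 2.99 CPM, the latter from 41 to 63 counts each. KO Control libraries held 11.7, 12.3, 13.1 and 11.7 CPM, all above WT Control, and KO LPS libraries 3.12, 4.11, 3.31, 2.91 and 3.81 CPM. The log2 fold change with LPS was -1.76 ± 0.13 in WT (adjusted p = 9.6e-11) and -1.82 ± 0.12 in KO (adjusted p = 2.1e-11).

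**Figure D3:**
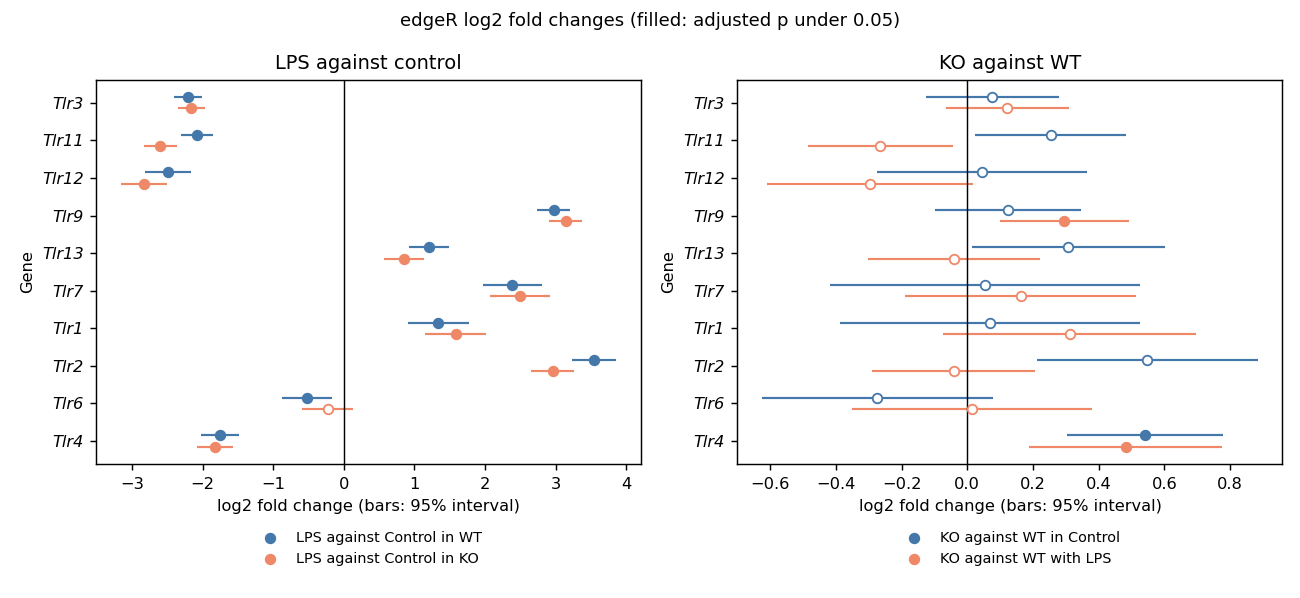
edgeR log2 fold changes of the 10 members with 95% intervals, LPS against Control (left) and KO against WT (right); filled points have an adjusted p under 0.05. On the left, 5 members lie right of zero in both genotypes; on the right, Tlr4 is filled in Control and with LPS, and Tlr9 with LPS.

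The second LPS replicates of both genotypes resembled each other in some members and parted in others. WT LPS replicate 2 and KO LPS replicate 2 were the highest libraries of their groups for Tlr2 (73.3 and 67.6 CPM), Tlr6 (5.06 and 4.70 CPM) and Tlr7 (23.5 and 26.5 CPM). They were also the highest of their groups in the summed monocyte and macrophage genes, at 1494 CPM against 1282 to 1425 CPM in the other WT LPS libraries and at 1642 CPM against 1062 to 1233 CPM in the other KO LPS libraries. The part of these genes in the receptor levels was not tested. These libraries parted for Tlr1, Tlr9, Tlr13, Tlr3 and Tlr12. WT LPS replicate 2 was the highest of its group for Tlr1, Tlr9 and Tlr13 (26.3, 720 and 143 CPM). KO LPS replicate 2 was not the highest of its group for these genes (19.6, 756 and 92.5 CPM). For Tlr3 and Tlr12, WT LPS replicate 2 was the lowest of its group and KO LPS replicate 2 was not.

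Between genotypes the differences were small. In Control, 1 of 10 members was called, against 2.41% of all genes (1.89% higher, 0.525% lower), and in that comparison libraries of 5 members did not overlap, against 14.7% of all genes. Tlr4 was higher in KO, at 12.2 ± 0.68 against 8.38 ± 0.92 CPM (log2 fold change 0.54 ± 0.11, edgeR adjusted p = 0.013). This call ended without WT Control replicate 1 (adjusted p = 0.050), WT Control replicate 3 (0.070) or KO Control replicate 3 (0.056). Because the Tlr4 libraries of KO and WT did not overlap in Control, any pairing of them puts KO above WT. By runs of consecutive library numbers (a run holds at most 1 library of each group), the difference was 0.25 to 0.72 on the log2 scale. Tlr2 differed by as much without being called, at 6.81 ± 0.32 against 4.66 ± 0.73 CPM (0.55 ± 0.16, adjusted p = 0.083; 0.030 with DESeq2).

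The other 3 members without overlap in Control were not called. Tlr11 averaged 210 ± 14.0 CPM in KO and 176 ± 8.27 in WT (0.25 ± 0.11, adjusted p = 0.30), Tlr13 averaged 51.8 ± 2.32 and 41.9 ± 3.30 CPM (0.31 ± 0.14, adjusted p = 0.33), and Tlr6 averaged 3.88 ± 0.29 and 4.69 ± 0.37 CPM (-0.27 ± 0.17, adjusted p = 0.52). Tlr1, Tlr3, Tlr7, Tlr9 and Tlr12 differed by 0.045 to 0.12 with adjusted p of 0.69 to 0.96. The 95% interval of the difference was -0.13 to 0.28 for Tlr3 and -0.28 to 0.37 for Tlr12, so a change of the size seen in Tlr4 lay outside both. When the 8 Control libraries were fitted alone, 4 members were called (Tlr2, Tlr4, Tlr11 and Tlr13, all higher in KO), and without WT LPS replicate 2, which enters only the estimate of spread, 3 were called (Tlr2, Tlr4 and Tlr13). The shares of all genes called in these fits are not given here, so both counts cannot be set against a background.

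With LPS, 2 of 10 members were called higher in KO and 0 lower, against 10.8% of all genes called (5.3% higher, 5.5% lower); edgeR gave an unadjusted p under 0.05 for 3, and DESeq2 called the same number, 2. Libraries of 0 members were free of overlap, against 6.51% of all genes. Tlr4 averaged 3.45 ± 0.50 CPM in KO and 2.48 ± 0.54 CPM in WT (0.48 ± 0.14, adjusted p = 0.033), and Tlr9 averaged 751 ± 58.8 and 612 ± 72.8 CPM (0.30 ± 0.09, adjusted p = 0.049). The KO library was the higher in 5 of 5 runs of library numbers for Tlr4 (by 0.32 to 0.74) and for Tlr9 (by 0.07 to 0.61). Both calls are fragile: over 30 alternatives Tlr9 lost its call in 19 (adjusted p up to 0.14) and Tlr4 in 8 (up to 0.18), in each case with the sign kept.

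WT LPS replicate 2 weighed on this comparison. Without it, 5 members were called: Tlr1 (0.55 ± 0.14, adjusted p = 0.0052), Tlr4 (0.55 ± 0.15, 0.0085) and Tlr9 (0.36 ± 0.09, 0.0045) were higher in KO, and Tlr11 (-0.31 ± 0.11, 0.035) and Tlr12 (-0.45 ± 0.08, 0.00040) lower. The share of all genes called without that library is not given here, so this count of members cannot be set against a background. With all libraries, Tlr1 differed by 0.31 ± 0.18 (adjusted p = 0.30), Tlr11 by -0.26 ± 0.11 (0.12) and Tlr12 by -0.30 ± 0.15 (0.22). Summed with Tlr6, whose reads it shares, Tlr1 differed by 0.26 ± 0.17 (adjusted p = 0.35) with all libraries. Tlr2, Tlr3, Tlr6, Tlr7 and Tlr13 differed by -0.04 to 0.16 and had adjusted p of 0.41 to 0.97.

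**Figure D4:**
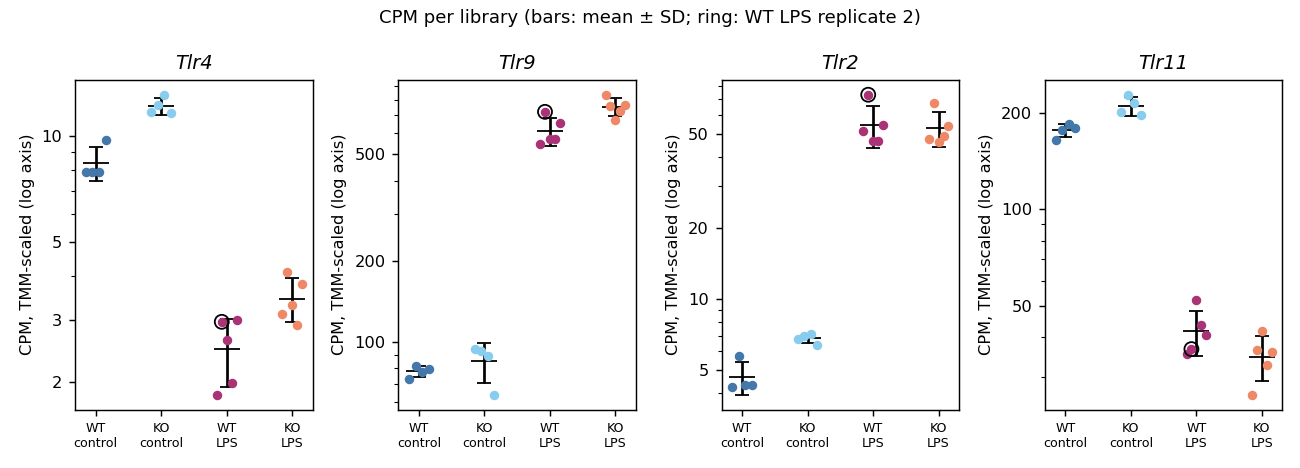
CPM (TMM-scaled, log axis) of Tlr4, Tlr9, Tlr2 and Tlr11 in every library, with mean ± SD bars for each group (n = 4 or 5) and a ring around WT LPS replicate 2. KO Control lies above WT Control without overlap for Tlr4, Tlr2 and Tlr11, and with LPS the genotypes overlap for all 4 genes.

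The interaction of genotype and LPS, which asks whether the LPS effect differed between KO and WT, called 0 members with edgeR, against 3.82% of all genes (1.03% higher, 2.79% lower). The unadjusted p was under 0.05 for 2 members and DESeq2 called 1. Those 2 were Tlr11, whose fall was deeper in KO by 0.52 ± 0.15 (interaction -0.52, adjusted p = 0.061; 0.037 with DESeq2), and Tlr2, whose rise was smaller in KO (-0.59 ± 0.20, adjusted p = 0.11). By library runs, Tlr11 differed between KO and WT by 0.14 to 0.37 in Control, where the genotypes did not overlap and any pairing puts KO higher. With LPS the difference was below 0 in 5 of 5 runs, at -0.42 to -0.0047. A fit with a block for these runs called Tlr2 and Tlr11 for the interaction. Without WT LPS replicate 2, Tlr11 (-0.56 ± 0.15, adjusted p = 0.017) and Tlr12 (-0.50 ± 0.11, 0.0076) were called. The shares of all genes called without that library or with the block are not given here. For Tlr4 the interaction was -0.06 ± 0.18 with a 95% interval of -0.44 to 0.32, and for Tlr9 it was 0.17 ± 0.14 (-0.13 to 0.47).

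The genes that act with the receptors were described by 6 lists. Of 63 genes on 6 lists, 62 were tested, of which 43 rose and 15 fell in WT and 44 rose and 16 fell in KO. As 85.5% and 86.2% of all genes were called in these comparisons, the counts of called genes for the lists here and below say little about the lists. Their median log2 fold change was 0.67 in WT, where that of all genes was -0.06, and 0.69 in KO, where it was -0.10. Between genotypes, edgeR called 0 of the 62 in Control (5 at an unadjusted p under 0.05, and 1 with DESeq2; 2.41% of all genes called), 7 higher and 2 lower with LPS (10.8% of all genes), and 5 for the interaction (3 higher, 2 lower; 3.82% of all genes). DESeq2 called 18 of the 62 between genotypes with LPS and 9 for the interaction. Without WT LPS replicate 2, edgeR called 23 and 11. The shares of all genes called in these alternatives are not given here, so these counts cannot be set against a background.

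Among the LPS co-receptors and relatives, 3 of 5 rose and 1 fell in WT. Cd14, which hands LPS to the receptor, rose from 1.55 to 36.1 CPM in WT (4.54 ± 0.32, adjusted p = 4.5e-11), and Ly96, the MD-2 subunit that binds LPS beside Tlr4, rose from 0.59 to 3.55 CPM (2.57 ± 0.28). Tlr4 itself fell in the same libraries. Ly86 fell from 29.4 to 20.9 CPM in WT (-0.50 ± 0.14) and from 33.6 to 16.2 CPM in KO (-1.05 ± 0.14). Cd180, a TLR-like surface protein that pairs with Ly86, did not pass the test for LPS in WT (0.04 ± 0.05, adjusted p = 0.42), rose in KO (0.56 ± 0.05) and was higher in KO than WT with LPS, at 266 against 192 CPM (0.47 ± 0.04, adjusted p = 9.0e-07). Cd36, a scavenger receptor that helps Tlr2 with Tlr6, was also higher in KO, at 292 against 235 CPM (0.31 ± 0.05, adjusted p = 0.00029). Their interaction terms were 0.52 ± 0.07 (adjusted p = 0.00015) and 0.27 ± 0.07 (0.042).

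Of 11 chaperones and traffic genes, 8 rose and 3 fell in each genotype, beside 85.5% (WT) and 86.2% (KO) of all genes called. Slc15a3, a lysosomal histidine and peptide transporter, rose from 21.4 to 208 CPM in WT (3.27 ± 0.12), and Cnpy4, a chaperone of surface TLRs, fell from 10.4 to 1.68 CPM (-2.61 ± 0.13). Slc15a3 was higher in KO with LPS, at 287 CPM (0.47 ± 0.10, adjusted p = 0.0036), as was Ap3b1, a subunit of the AP-3 sorting complex, by 0.15 ± 0.05 (adjusted p = 0.036). Of 11 endosomal proteases and nucleases, 7 rose and 2 fell in WT. Dnase1l3, a secreted DNase, had the largest rise of all listed genes, from 2.09 to 606 CPM in WT (8.17 ± 0.10, adjusted p = 2.1e-21) and from 2.20 to 769 CPM in KO. Pld4, an endosomal exonuclease that degrades TLR9 ligands, fell from 259 to 34.1 CPM in WT (-2.93 ± 0.07) and from 269 to 29.5 CPM in KO. Lgmn, the asparagine endopeptidase that can cleave endosomal TLRs, rose from 118 to 439 CPM in WT (1.90 ± 0.15). Dnase1l3 was higher in KO than WT with LPS without overlap (0.35 ± 0.06, adjusted p = 0.0013).

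All 7 adaptors were called with LPS in both genotypes, 5 higher and 2 lower, where 85.5% (WT) and 86.2% (KO) of all genes were called. Myd88 rose from 60.9 to 497 CPM in WT (3.03 ± 0.05, adjusted p = 9.9e-21) and Pik3ap1, the BCAP adaptor, from 168 to 2034 CPM (3.60 ± 0.05). Tirap, which bridges Tlr2 and Tlr4 to MyD88, fell from 25.2 to 12.4 CPM (-1.02 ± 0.10), and Sarm1, with few counts, from 0.78 to 0.10 CPM (-2.88 ± 0.41). Of 15 kinases and ubiquitin ligases, 11 rose and 4 fell in each genotype. Ikbke rose from 1.50 to 77.7 CPM in WT (5.69 ± 0.27), Peli1, a ubiquitin ligase of IRAK complexes, from 38.1 to 374 CPM (3.30 ± 0.10), and Tab1, a partner of the kinase TAK1, fell from 28.4 to 9.11 CPM (-1.63 ± 0.11). Irak4, the kinase that opens the MyD88 complex, was lower in KO than WT with LPS without overlap, at 22.9 against 34.1 CPM (-0.57 ± 0.05, adjusted p = 5.2e-07; interaction -0.54 ± 0.08, 0.00033).

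Of 13 genes that restrain TLR signalling, 9 rose and 3 fell in each genotype, again beside 85.5% and 86.2% of all genes called. Tnfaip3, which encodes the deubiquitinase A20, rose from 18.8 to 524 CPM in WT (4.80 ± 0.13) and its partner Tnip1 from 22.5 to 277 CPM (3.62 ± 0.06). Sigirr, a decoy-like receptor of the IL-1 receptor family, fell from 24.3 to 2.96 CPM in WT (-3.03 ± 0.13) and from 26.7 to 1.54 CPM in KO (-4.11 ± 0.14), and Inpp5d, the phosphatase SHIP1, fell from 475 to 126 CPM in WT (-1.91 ± 0.13). With LPS, Tnip1 was higher in KO (367 against 277 CPM, 0.40 ± 0.05, adjusted p = 1.9e-05), as was the ubiquitin ligase Rnf216 (80.9 against 72.3 CPM, 0.16 ± 0.05, adjusted p = 0.035), and Sigirr was lower (-0.94 ± 0.17, adjusted p = 0.0014). Tnip1 and Sigirr also had interaction terms past the threshold, at 0.37 ± 0.08 (adjusted p = 0.0093) and -1.08 ± 0.21 (0.0064).

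**Figure D5:**
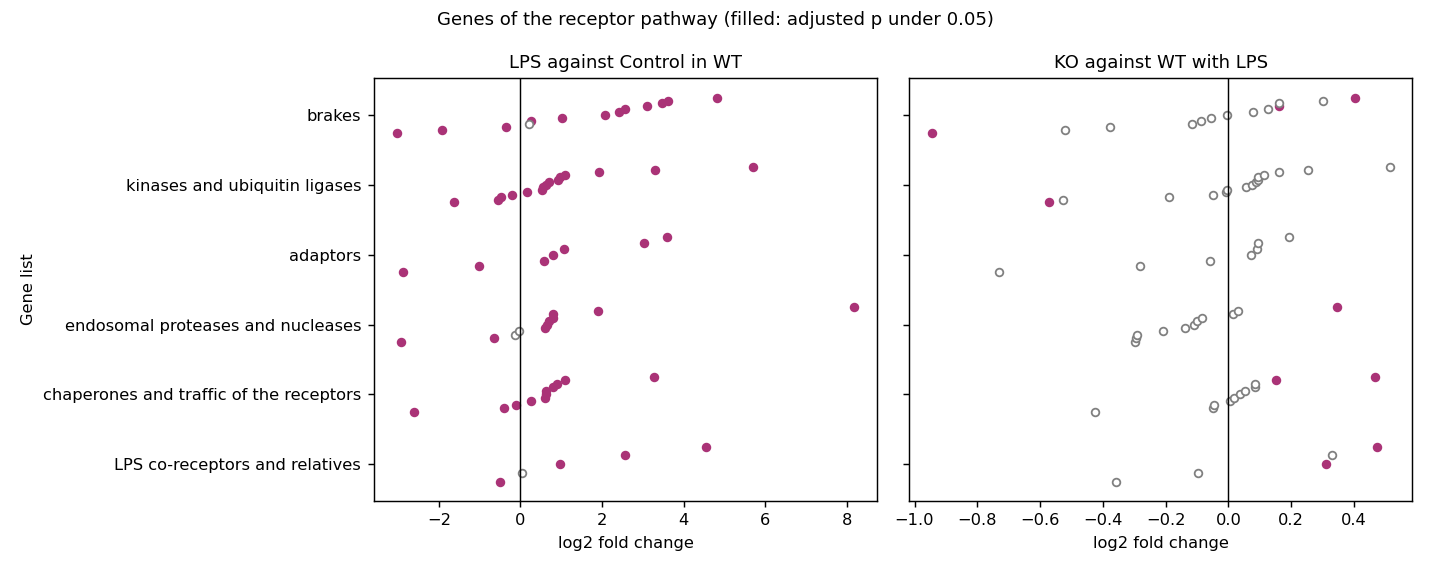
log2 fold changes of 62 genes that act with the receptors, one point for each gene in 6 lists, for LPS against Control in WT (left) and KO against WT with LPS (right; another scale); filled points have an adjusted p under 0.05. On the left, 43 genes lie right of zero as filled points and 15 left of it; on the right, 9 points are filled.

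Genes with the most similar pattern were found by the root mean square difference of log2 group means, centred on each gene's mean, over the 4 groups and 8917 genes of at least 5 CPM. Closest to Tlr3 was Akap1 (0.01), followed by Sesn1 (0.03). Closest to Tlr9 were Mocos (0.03) and Rilpl2 (0.03). Closest to Tlr11 were Elk3 (0.04) and Alox5ap (0.04), and closest to Tlr12 were Fbxo21 (0.02) and Daglb (0.02). Tlr4 had Cyp2s1 (0.05) and Ank (0.08) nearest, and Tlr2 had Bst2 (0.08) and Trex1 (0.11). With 4 groups, likeness says only that the group means had a like order and spacing.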

How the data were processed

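RNA of purified BMDC was sequenced in 18 libraries on the DNBSEQ platform as read pairs of 150 bases, per the labels' protocols. HISAT and Bowtie2 were used with build GRCm39, per the submitters' processing notes; their versions, the annotation and the counting program are not stated in those notes. For 16614 genes and each library the authors deposited 3 measures, per the file headers: estimated counts, TPM and FPKM. The deposited estimated counts are not normalized, and 6.37% of them are not whole at a tolerance of 0.001; how reads shared by related genes were divided is not stated. The deposited TPM values are scaled for transcript length and to a common sum, and were used for levels across genes. The deposited FPKM values were not used.

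Estimated counts were rounded to whole numbers. Genes passing filterByExpr (minimum count 10, minimum total 15) were kept, which left 11989. The 18 libraries entered 1 quasi-likelihood fit (edgeR 4.0.16, R 4.3.3, TMM factors) of 4 group means, from which 5 contrasts were taken. Calls were made at 0.05 after Benjamini-Hochberg adjustment over all tested genes. CPM values use TMM-scaled totals, and log2 CPM for library profiles and likeness a prior count of 2. Mean TMM factors were 1.36 (WT) and 1.32 (KO) in Control and 0.814 (WT) and 0.769 (KO) with LPS, and the biological coefficient of variation was 0.0934. Replicates differed by more than counting error (chi-square per degree of freedom 2.75 to 78.2 over 32 pairs), so no library was treated as a copy of another. The scripts were tested on simulated counts.

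The members, the gene lists and the tests were chosen with earlier results of these data known. Genes of the lists are named from the 2 called genes with the largest change in each direction of a list and contrast, and all genes called between genotypes are named. Promoter motifs were searched on both strands of RefSeq windows of GRCm38.p6, a build other than that of the counts, and were used for sequence only. Alternatives were DESeq2 1.42.0, limma-voom and limma 3.58.1 on log2(TPM + 1), other scalings and filters, a fit of the compared groups alone, replicate blocks, each library left out in turn, and the sum of Tlr1 and Tlr6, which was added after the data were seen.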

Additional observations from a re-analysis of the deposited data

Results flagged for a closer look

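In 4 of 40 combinations of member and group, 1 library stood apart from the others by Dixon's test, which chance gives in about 1 of 20. Tlr2 was highest in WT Control replicate 2, at 5.74 CPM against 4.32 CPM in the next library (gap 0.949 of the group's range, critical value 0.829). Tlr4 was highest in WT Control replicate 4, at 9.75 CPM against 7.92 CPM (gap 0.995 of the range). That library also held 25.5 CPM of summed neutrophil genes, against 0.22 to 0.47 CPM in the other WT Control libraries; their part in the Tlr4 level was not tested. Tlr6 was highest in KO LPS replicate 2, at 4.70 CPM against 3.31 CPM (gap 0.735, critical value 0.71), the library with the highest monocyte and macrophage sum of its group. Tlr13 was lowest in KO Control replicate 4, at 48.4 CPM against 52.7 CPM (gap 0.850).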

How the results depend on the processing

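With LPS against Control, all 10 members were called in WT under each of the 30 alternatives, libraries left out included (10 to 10), and 9 to 10 in KO when a library was left out. Total-count scaling moved the median of all genes by -0.74 in WT and -0.78 in KO, upper quartile scaling by -0.27 and -0.30, and log2(TPM + 1) by -0.54 and -0.46. Of 1500 comparisons of a member's value with its main value, 1402 kept direction and call, 39 gained a call, 32 lost it and 27 changed sign. The cause of the changes below was not tested unless fewer libraries account for it. The share of all genes called under each alternative is not given here, so the counts of members below have no background beside them.

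For KO against WT in Control (1 member called), DESeq2 called 2, the compared groups alone 4, and the fit without both second LPS libraries 3; leaving out each library gave 0 to 3. On log2(TPM + 1), signs turned for Tlr1 (-0.038), Tlr3 (-0.046), Tlr7 (-0.023), Tlr9 (-0.018) and Tlr12 (-0.081); Tlr7 ranged from -0.030 to 0.095 with libraries left out. For KO against WT with LPS (2 called), limma-voom and a minimum count of 50 called 1, total-count scaling, log2(TPM + 1) and the compared groups alone 0, and the fit without both second LPS libraries 5, with 0 to 5 when each library was left out. Tlr6 was -0.058 with total counts, -0.0076 with upper quartiles and -0.036 on log2(TPM + 1), and Tlr13 was 0.16 without both second LPS libraries. With libraries left out, Tlr2 ranged from -0.14 to 0.089, Tlr6 from -0.15 to 0.21, Tlr7 from -0.0040 to 0.32 and Tlr13 from -0.11 to 0.14. For the interaction (0 called), upper quartile scaling and DESeq2 called 1 and the fit without both second LPS libraries 3, where Tlr3 turned to -0.047; leaving out each library gave 0 to 2, with Tlr3 at -0.039 to 0.11, Tlr4 at -0.15 to 0.018 and Tlr7 at -0.059 to 0.27. With Tlr1 and Tlr6 counts added, the LPS effect was 0.81 in WT and 1.14 in KO, and KO against WT in Control -0.066.

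A replicate block by title number or by run of library numbers called 2 members in Control between genotypes (Tlr2 and Tlr4) and 2 for the interaction under either numbering, Tlr2 (adjusted p = 0.013 and 0.0094) and Tlr11 (0.029 and 0.012); by run it also called Tlr11 between genotypes with LPS (0.033). Between genotypes, deviations of same-numbered libraries correlated above 0.1 in 1 of 4 pairs in Control and 2 of 5 with LPS. In Control, 1 of 4 libraries matched its own number best. By run, LPS and Control libraries correlated above 0.1 in 4 of 4 pairs in WT (0.14 to 0.27) and 2 of 4 in KO. Of these, 3 of 4 in WT and 2 of 4 in KO matched their own run best, against 1 of 4 each by title number. In the run of library numbers 17 to 20, each library had the highest neutrophil sum of its group. These sums were 25.5 (WT Control), 1.82 (KO Control), 83.7 (WT LPS) and 2.05 CPM (KO LPS). Whether a run is a batch is not stated in the labels, so the main fit held no block.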
